A study of Mus musculus with 12 samples.

Results

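The genes described here are 9 that set or report the activity of NRF2, the transcription factor of the antioxidant response, in J774A.1 cells, a mouse macrophage-like line. They are Nfe2l2, Keap1, Bach1, Mafg, Mafk, Nqo1, Osgin1, Abcc1 and Ugdh, taken by gene symbol from the 28977 gene IDs of the deposited table, and all 9 were found. The libraries were 12, 3 in each of 4 groups. The groups were cell media, HBSS (a balanced salt solution with 0 µM HOCl, the vehicle), and HOCl diluted in HBSS to 20 µM or to 100 µM. HOCl is hypochlorous acid, the oxidant that myeloperoxidase makes from hydrogen peroxide and chloride. Exposure lasted 1 h, was followed by 24 h in full medium in every group, and the cell media group never left medium for HBSS. The study used both sublethal and lethal concentrations, and the labels do not say which of these doses was which. All samples were of 1 cell line, and nothing in the labels says that replicates were separate cultures, so a p-value here reflects only the spread among the samples, which may be technical. The 9 genes were chosen by role and by values already seen in these libraries, among them the higher mean of Osgin1 at 20 µM and the low level of Nqo1, so their values are a description and support nothing further.

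NRF2, encoded by Nfe2l2, is made continuously and is held by KEAP1, which hands it to a ubiquitin ligase for degradation. Oxidants and electrophiles modify cysteines of KEAP1, so that newly made NRF2 escapes, enters the nucleus, pairs with a small MAF protein (MAFG or MAFK among them) and binds antioxidant response elements. BACH1 is a repressor that pairs with the same small MAF proteins on the same elements and leaves them when it binds heme. Much of this control acts on protein, so the mRNA of Nfe2l2 or Keap1 need not follow the activity of NRF2. Nqo1 (a quinone reductase), Osgin1 (an oxidative stress growth inhibitor), Abcc1 (an exporter of glutathione conjugates) and Ugdh (the enzyme that makes UDP-glucuronate) are known targets, and Mafg is itself a target in several cell types.

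The core of the antioxidant response element, TGACNNNGC, was searched on both strands in RefSeq promoter windows of GRCm38.p6, which run from 250 bases before to 50 bases after the start of a gene. Windows were given for 8 of the 9 genes, and Abcc1 was not matched. The core was in 4 of the 8 windows, and in 12.39% of all 32851 windows of the same length. The upstream 250 bases are shown for the 2 small MAF genes, which held the core, and for Nqo1 and Osgin1, the targets whose means were farthest from HBSS, whose windows did not hold it. Capitals mark the core, read on the strand of the gene, 5′ to 3′. A match describes letters in the window and is not a measured binding site, and no match says nothing about sites elsewhere.
Mafg: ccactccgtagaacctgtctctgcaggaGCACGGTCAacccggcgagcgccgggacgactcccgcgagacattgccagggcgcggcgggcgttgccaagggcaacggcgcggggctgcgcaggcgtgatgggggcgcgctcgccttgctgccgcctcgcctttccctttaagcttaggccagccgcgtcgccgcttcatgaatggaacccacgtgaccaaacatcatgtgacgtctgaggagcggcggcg
Mafk: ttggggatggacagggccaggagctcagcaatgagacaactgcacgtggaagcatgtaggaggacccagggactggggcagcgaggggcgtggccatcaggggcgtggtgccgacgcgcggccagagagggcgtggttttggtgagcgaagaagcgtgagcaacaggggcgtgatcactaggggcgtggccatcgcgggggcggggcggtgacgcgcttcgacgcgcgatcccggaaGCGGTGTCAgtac
Nqo1: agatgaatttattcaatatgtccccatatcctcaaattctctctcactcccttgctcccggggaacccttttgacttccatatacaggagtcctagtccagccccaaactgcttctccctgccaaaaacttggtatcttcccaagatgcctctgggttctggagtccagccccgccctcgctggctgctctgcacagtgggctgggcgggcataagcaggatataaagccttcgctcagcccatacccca
Osgin1: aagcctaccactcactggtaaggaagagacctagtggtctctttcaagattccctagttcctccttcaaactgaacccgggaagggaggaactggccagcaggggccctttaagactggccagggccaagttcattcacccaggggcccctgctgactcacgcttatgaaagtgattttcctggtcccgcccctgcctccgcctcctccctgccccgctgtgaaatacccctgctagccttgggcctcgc
These stretches are chr11:120633548-120633797 on the minus strand for Mafg, chr5:139791286-139791535 on the plus strand for Mafk, chr8:107403206-107403455 on the minus strand for Nqo1 and chr8:119436897-119437146 on the plus strand for Osgin1. The match began at −222 from the gene start in Mafg and at −13 in Mafk. Nfe2l2 held 1 match, at −240, and Ugdh held 2, at −132 and −94. The windows of Keap1 and Bach1 held none.

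Values are FPKM, a read count scaled by exon length and by library depth, so levels of different genes can be set side by side. The FPKM of a library rested on 17683937 to 21408518 reads. That number was 19880581 to 21408518 in HBSS and 17736499 to 18811910 at 100 µM, so the depth of these groups did not overlap. Replicates 1 and 2 of cell media differed from the other 10 libraries: ribosomal protein genes took 12.36% to 12.53% of their FPKM and 7.18% to 8.05% in the other 10. The line carried macrophage markers throughout, with all 9 listed markers above 1 FPKM. Of the markers of 6 other cell types, only S100a8, a neutrophil gene, reached 1 FPKM (9.71 to 19.1), while S100a9 and Ly6g stayed below 0.13. The summed FPKM of the macrophage markers was 3384 to 3701 in HBSS, 3511 to 3703 at 20 µM and 3898 to 4425 at 100 µM, and the part of this and of depth in the results was not tested. Lyz2 led the sum (2020 to 2892 over the 12 libraries), followed by Cd68 (771 to 918) and Cd14 (281 to 375). Adgre1 was at 3.71 to 9.14, so the sum does not describe the 9 markers evenly.

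The 9 genes spanned a wide range of levels. Averaged over the 12 libraries, Nfe2l2 led at 56.9 FPKM, above 92.1% of the 12026 genes that passed a filter of at least 1 FPKM in 3 or more libraries. Mafg followed at 26.2, then Abcc1 at 16.4, Bach1 at 12.5, Ugdh at 9.74, Keap1 at 7.56, Mafk at 6.17 and Osgin1 at 6.16. The means of Mafk and Osgin1 lay within each other's range over libraries (5.21 to 7.19 and 4.12 to 7.46). The ranges of Abcc1 and Bach1 overlapped in part (10.9 to 18.5 and 8.36 to 15.3), as did those of Ugdh and Keap1 (6.93 to 10.97 and 6.65 to 8.30). Nqo1 was far below at 0.534, did not reach 1 FPKM in any library, and was the 1 gene of the 9 that the filter left out. Counts below are therefore over 8 genes, and Nqo1 is given apart.

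Nqo1, whose enzyme reduces quinones with 2 electrons and is a standard reporter of NRF2, gave few reads, and these were highest at 100 µM. It stood at 0.106, 0.364 and 0.285 FPKM in cell media replicates 1, 2 and 3, from 3, 10 and 9 reads. In HBSS it stood at 0.331, 0.486 and 0.421, from 11, 15 and 13 reads. At 20 µM the values were 0.629, 0.603 and 0.461, from 20, 20 and 14 reads, and at 100 µM they were 0.821, 0.908 and 0.996, from 24, 25 and 29 reads. Every 100 µM library was above every other library, and the 20 µM and HBSS ranges overlapped through 20 µM replicate 3 and HBSS replicate 2. The share of all genes with 100 µM above every other library was not computed. The mean was 0.252 ± 0.132 in cell media, 0.412 ± 0.078 in HBSS, 0.564 ± 0.090 at 20 µM and 0.908 ± 0.087 at 100 µM (FPKM ± SD, n = 3 each), so that 100 µM was 2.20 times HBSS and 1.61 times 20 µM. Reads summed over a group gave 0.410 FPKM in HBSS (exact 95% Poisson interval 0.292 to 0.561, 39 reads) and 0.908 at 100 µM (0.718 to 1.13, 78 reads). These intervals cover counting error only, and reads without molecular identifiers are not independent molecules. A permutation of 3 against 3 libraries cannot give a p below 0.1. With all genes kept, the limma difference between 100 µM and HBSS was 0.43 on the scale of log2(FPKM + 1), 95% interval 0.23 to 0.64, and Nqo1 was not called (limma, adjusted p = 0.475, with 0.00345% of all genes called). That scale compresses a gene this low: with limma-voom on reads the log2 difference was 1.13 (95% interval 0.44 to 1.82, adjusted p = 0.588), again not called.

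**Figure D1:**
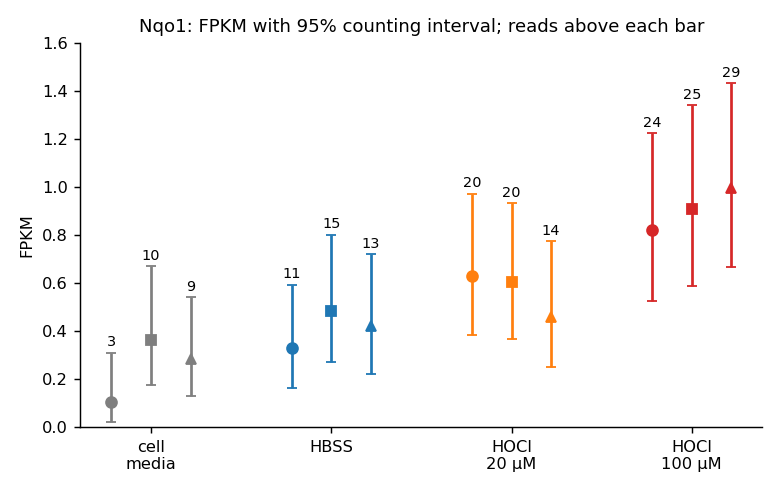
Nqo1 FPKM (y axis) in each of the 12 libraries by group (x axis), with the exact 95% Poisson interval of its reads as bars and the number of reads above each bar. The 3 libraries at 100 µM lie highest, at 0.821 to 0.996 FPKM, and the intervals of single libraries in neighbouring groups overlap.

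Osgin1, like Nqo1, had a higher mean at both doses than in HBSS, and its mean in cell media lay between that of HBSS and those of the doses. It stood at 5.71, 4.12 and 5.04 FPKM in HBSS replicates 1, 2 and 3, at 5.61, 7.15 and 7.10 at 20 µM, at 6.74, 7.46 and 6.82 at 100 µM, and at 5.63, 6.96 and 5.56 in cell media. All 100 µM libraries lay above all HBSS libraries, while 20 µM replicate 1 lay within the HBSS range. Against HBSS (4.96 ± 0.80), the log2 difference was 0.36 (95% interval 0.085 to 0.63) at 20 µM (6.62 ± 0.88) and 0.43 (0.16 to 0.71) at 100 µM (7.01 ± 0.40; SD, n = 3 each). The doses overlapped, with a log2 difference of 0.078 (−0.19 to 0.35). Osgin1 had the largest difference from HBSS of the 8 genes at either dose, and limma called it at neither (adjusted p = 1 and 0.59). The comparisons of the 2 doses with HBSS share the HBSS libraries, in which replicate 2 was lowest. Without that library the difference was 0.25 (95% interval −0.029 to 0.53) at 20 µM and 0.33 at 100 µM. The 20 µM interval also included 0 without 20 µM replicate 2 or without 20 µM replicate 3. It excluded 0 without HBSS replicate 1, HBSS replicate 3 or 20 µM replicate 1.

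Abcc1 and Ugdh, the other 2 targets, stood close to their HBSS levels after HOCl. Abcc1 was at 18.0, 17.1 and 18.2 FPKM in HBSS, at 18.1, 18.5 and 18.4 at 20 µM and at 17.4, 16.03 and 16.2 at 100 µM. The 100 µM libraries lay below all 20 µM libraries and overlapped HBSS, with a log2 difference of −0.099 from HBSS (95% interval −0.39 to 0.20). Abcc1 has the longest exons of the 9 genes, 15092 bases, and with each library's trend on exon length removed the difference was 0.089. Ugdh was at 10.1, 10.4 and 10.7 in HBSS, 10.3, 10.6 and 9.93 at 20 µM and 9.91, 10.97 and 10.2 at 100 µM. These 3 groups overlapped, and the 95% interval for 100 µM against HBSS ran from −0.25 to 0.24. The set of known targets thus held genes with higher means at 100 µM (Nqo1, Osgin1) and genes with means near or below HBSS (Ugdh, Abcc1). Mafg, a target in several cell types, also had a lower mean at 100 µM, 0.828 times the HBSS mean.

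Among the regulators, the mRNA of NRF2 itself was abundant and its groups overlapped. Nfe2l2 was at 53.0, 62.1 and 62.5 FPKM in HBSS, 56.1, 57.5 and 58.4 at 20 µM and 54.3, 53.4 and 56.8 at 100 µM. HBSS replicate 1 was as low as the 100 µM libraries, and the log2 difference at 100 µM was −0.10 (95% interval −0.30 to 0.090). Keap1, the substrate adaptor that holds NRF2, was at 6.65, 7.46 and 7.17 in HBSS, 7.50, 7.34 and 7.85 at 20 µM and 7.61, 8.21 and 7.80 at 100 µM. Its 100 µM libraries all lay above HBSS, by a log2 difference of 0.13 (−0.025 to 0.29), though 2 of the 3 cell media libraries, at 7.39 and 7.45, lay within the HBSS range.

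**Figure D2:**
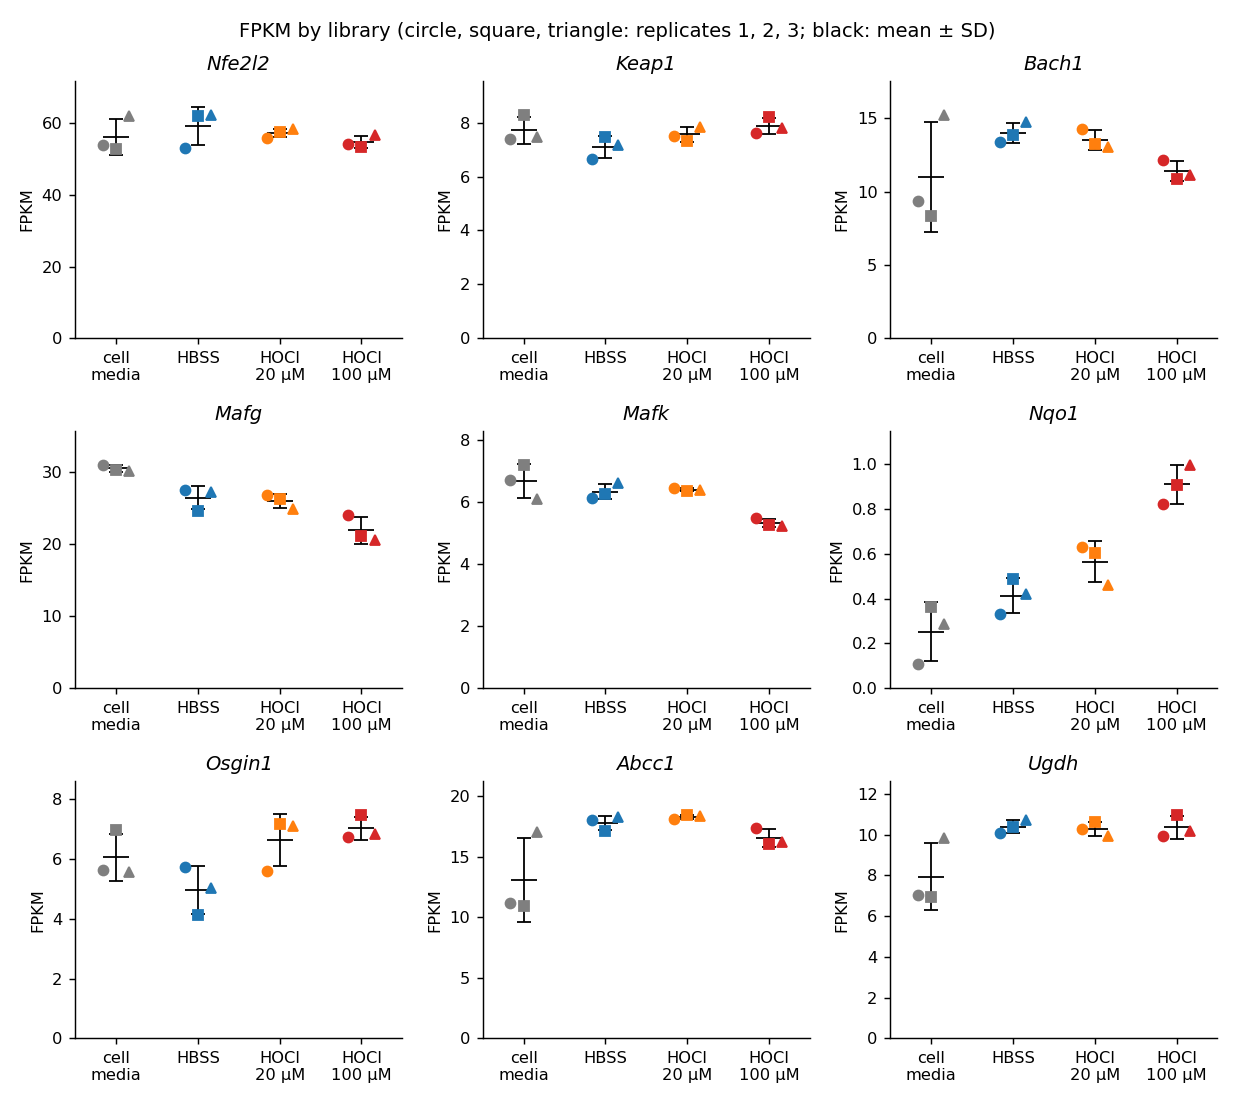
FPKM (y axes, each from 0) of the 9 genes in the 12 libraries by group (x axes), with replicates 1, 2 and 3 as circle, square and triangle and the mean ± SD (n = 3) in black. At 100 µM Bach1, Mafg and Mafk lie below all HBSS libraries and Nqo1, Osgin1 and Keap1 above them, and cell media replicates 1 and 2 are low in Bach1, Abcc1 and Ugdh.

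The repressor and both small MAF partners had lower means at 100 µM. Bach1 was at 13.4, 13.9 and 14.7 FPKM in HBSS, 14.3, 13.2 and 13.0 at 20 µM and 12.2, 10.9 and 11.1 at 100 µM. Mafg was at 27.4, 24.6 and 27.1 in HBSS, 26.8, 26.2 and 24.9 at 20 µM and 23.9, 21.0 and 20.6 at 100 µM. Mafk was at 6.13, 6.24 and 6.61 in HBSS, 6.43, 6.34 and 6.39 at 20 µM and 5.46, 5.26 and 5.21 at 100 µM. In each of the 3 genes every 100 µM library lay below every HBSS and every 20 µM library, and 20 µM overlapped HBSS. Of the 12026 tested genes, 17.6% lay below HBSS in this way and 15.6% below 20 µM. The share that lay below both was not computed. The 100 µM mean was 0.813 times the HBSS mean for Bach1, 0.828 times for Mafg and 0.840 times for Mafk. On the log2 scale the differences from HBSS were −0.28 for Bach1 (95% interval −0.64 to 0.085), −0.26 for Mafg (−0.43 to −0.092) and −0.21 for Mafk (−0.37 to −0.060). With the exon length trend removed they were −0.21, −0.20 and −0.21, and none of the 3 was called with or without it (limma, adjusted p = 0.666, 0.602 and 0.602 without). The intervals use the spread of all 12 libraries, and Bach1 varied most in cell media (SD 3.73, against 0.67 to 0.68 FPKM in the other groups). Without cell media replicates 1 and 2 they were −0.41 to −0.15 for Bach1, −0.41 to −0.11 for Mafg and −0.31 to −0.12 for Mafk. On all 12 libraries the Mafk interval included 0 with median-of-ratios scaling (−0.40 to 0.022) and with quantile normalization (−0.38 to 0.021). Under these 2 scalings the Bach1 interval also included 0 and the Mafg interval did not. In bulk libraries, fewer cells of a kind and less RNA per cell cannot be told apart.

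Ratios within a library do not depend on how the library is scaled. The ratio of Nfe2l2 to Keap1 was 7.98, 8.32 and 8.71 in HBSS, 7.48, 7.84 and 7.45 at 20 µM and 7.14, 6.51 and 7.29 at 100 µM. It did not overlap between HBSS and 20 µM or between 20 µM and 100 µM, with means of 8.34 ± 0.37, 7.59 ± 0.22 and 6.98 ± 0.41 (SD, n = 3 each). The gaps were small, with nearest libraries at 7.98 and 7.84 for the first step and at 7.45 and 7.29 for the second. Taken alone, Nfe2l2 and Keap1 each overlapped at both steps. Ratios of genes outside the 9 were not computed, so no share over other gene pairs stands beside this. Cell media spread widely, at 7.32, 6.36 and 8.32. The ratio of Nfe2l2 to Bach1 was 3.95 to 4.47 in HBSS, 3.92 to 4.49 at 20 µM and 4.47 to 5.11 at 100 µM, where the lowest 100 µM library met the highest HBSS library. Mafg exceeded Mafk by a ratio of 4.17 ± 0.27 in HBSS, 4.06 ± 0.15 at 20 µM and 4.11 ± 0.24 at 100 µM. Both small MAF genes thus had lower means at 100 µM at overlapping ratios.

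**Figure D3:**
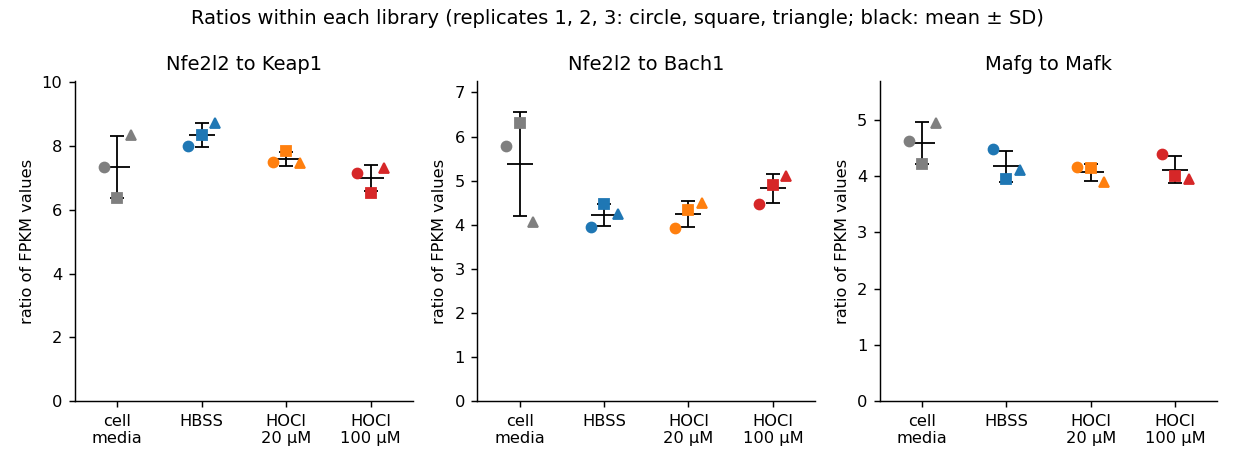
Ratio of FPKM values (y axes, from 0) within each library by group (x axes) for Nfe2l2 to Keap1, Nfe2l2 to Bach1 and Mafg to Mafk, with replicates 1, 2 and 3 as circle, square and triangle and the mean ± SD (n = 3) in black. Nfe2l2 to Keap1 is lowest among the HBSS and HOCl groups at 100 µM (6.98 ± 0.41), and Mafg to Mafk lies between 3.89 and 4.47 in these 9 libraries.

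At 20 µM against HBSS, limma called 0 of the 8 genes, and 0% of the 12026 genes tested were called. At an unadjusted p under 0.05 there was 1 of the 8, Osgin1, against 1.08% of all genes. Osgin1 was chosen with its higher mean at 20 µM known, so this count was selected on the value it counts. The other members were also chosen with values of these libraries seen, so the shares in this paragraph are a description and no test. In 0 of the 8 genes did the groups fail to overlap, against 7.69% of all genes. At 100 µM against HBSS limma again called 0 of 8 and 0% of all genes, with 3 of 8 at an unadjusted p under 0.05 (Osgin1, Mafg and Mafk) against 7.76%. There the groups did not overlap in 5 of the 8, with 2 above HBSS and 3 below, against 34.1% of all genes (16.5% above and 17.6% below). Between the doses limma called 0 of 8 and 0% of all genes, with 2 of 8 at an unadjusted p under 0.05 (Mafg and Mafk) against 4%. The doses did not overlap in 4 of the 8, Bach1, Mafg, Mafk and Abcc1, each lower at 100 µM, against 28.3% of all genes in either direction and 15.6% in that one. Limma-voom on reads also called 0 of the 8 in each of these 3 comparisons, and 0% of the 11681 genes it tested. The spread of these fits includes cell media replicates 1 and 2. On the other 10 libraries limma called 0 of the 8 at 100 µM against HBSS and 0.241% of all genes, with 5 of 8 at an unadjusted p under 0.05 against 32.2% of all genes, and a smallest adjusted p = 0.0564, for Mafk.

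**Figure D4:**
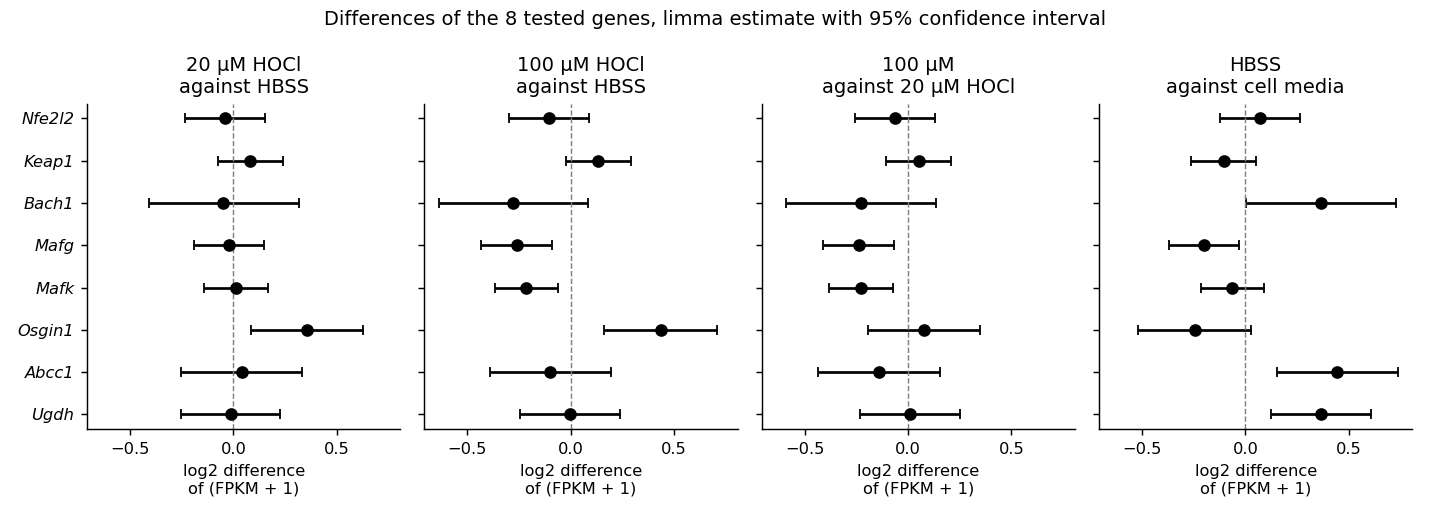
Log2 difference of FPKM + 1 (x axes) with its 95% confidence interval from the limma model for the 8 tested genes (y axis) in the 4 comparisons. Intervals of Osgin1, Mafg and Mafk exclude 0 at 100 µM against HBSS, and 0 of the 8 genes was called in any comparison after adjustment over all genes.

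The comparison of HBSS with cell media, which asks what the vehicle alone did, turned on which cell media libraries were used. Abcc1 was at 11.2, 10.9 and 17.1 FPKM in cell media replicates 1, 2 and 3, Ugdh at 7.03, 6.93 and 9.82, and Bach1 at 9.34, 8.36 and 15.3. In each of these, replicates 1 and 2 were low and replicate 3 was near HBSS. Their log2 differences of HBSS from cell media were 0.44 for Abcc1, 0.37 for Ugdh and 0.37 for Bach1 with all libraries. With cell media replicate 3 as the only cell media library they were 0.056, 0.073 and −0.12. With the exon length trend removed, on all libraries, they were 0.094, 0.16 and 0.18. Mafg was at 30.9, 30.3 and 30.1 in cell media, above all HBSS libraries in each of the 3, with a log2 difference of −0.20 (95% interval −0.37 to −0.031). Mafk was at 6.71, 7.19 and 6.09 and Nfe2l2 at 54.1, 52.8 and 62.0, and both overlapped HBSS. Limma called 0 of the 8 and 0.0166% of all genes, with 4 of 8 at an unadjusted p under 0.05 against 40% of all genes, and the groups did not overlap in 3 of the 8 against 21.6%. HBSS lay above in 2 of these, Abcc1 and Ugdh, against 12.7% of all genes, and below in 1, Mafg, against 8.91%. Limma-voom called 0 of the 8 and 0.0342% of all genes. Without cell media replicate 3 limma called 4 of the 8 (Abcc1, Ugdh and Bach1 higher, Mafg lower) and 65.3% of all genes. Over all genes the median log2 difference was 0.10, and −0.013 with median-of-ratios scaling.

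Other genes of the pathway were read from lists that do not hold the 9 genes. Of 33 further NRF2 targets, 26 passed the filter and limma called 0 in either direction in each comparison. Without cell media replicate 3 it called 15 of the 26 in HBSS against cell media, beside 65.3% of all genes. At 100 µM against HBSS 23 of the 26 were higher and 3 lower. Their median log2 difference was 0.20, where all genes had a median of −0.006 and 48.5% higher. By mean FPKM the 3 lower genes were Gclc (22.29 in HBSS and 20.47 at 100 µM), Slc7a11 (7.35 and 5.98) and Txnrd1 (51.15 and 50.15). Genes with higher means and the smallest p follow. Prdx1, a peroxiredoxin, averaged 493 ± 22 FPKM under HBSS and 628 ± 53 at 100 µM, and Akr1b8, an aldo-keto reductase, at 114 ± 6 and 145 ± 14 (SD, n = 3 each). At 20 µM 22 of the 26 were higher, with a median of 0.045, where all genes had a median of 0.006 and 53.9% higher. This rested on single libraries: 13 of the 26 were higher without HOCl 20 µM replicate 3 (median −0.001) and 15 without HBSS replicate 1 (median 0.005). Me1, the malic enzyme, was at 8.77 ± 0.52 in HBSS and 9.85 ± 0.58 at 20 µM, and Gclm, a subunit of the enzyme that limits glutathione synthesis, at 11.5 ± 0.4 and 12.4 ± 0.6.

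The 8 genes known to be repressed by BACH1, 7 of which are also in the target list, all passed the filter and 0 was called. At 100 µM against HBSS 7 of the 8 were higher, with a median of 0.24 (0.11 with quantile normalization), as in the heme transporter gene Slc48a1 (62.5 ± 5.0 and 80.5 ± 8.0 FPKM) and the heme oxygenase gene Hmox1 (87.2 ± 10.0 and 113 ± 15). The exception was the cystine transporter gene Slc7a11, with 7.35 FPKM under HBSS and 5.98 at 100 µM.

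Of 20 other genes listed around the control of NRF2, which include relatives and partners as well as regulators, 16 passed the filter and 0 was called. At 100 µM 4 were higher and 12 lower than in HBSS, with a median of −0.13. With the exon length trend removed 6 were higher and 10 lower, with a median of −0.050. Nfe2l1, the related factor NRF1, averaged 113 ± 12 FPKM under HBSS and 90.5 ± 10.1 at 100 µM, and Sesn2, a sestrin, at 19.4 ± 0.6 and 16.8 ± 1.5. Maff, the third small MAF gene, was at 2.67 in HBSS and 3.05 at 100 µM, and Cul3, the scaffold of the KEAP1 ligase, at 39.2 and 37.9. Sqstm1, the adaptor p62 that sequesters KEAP1, was at 183 ± 26 in HBSS, 166 at 100 µM and 256 ± 36 in cell media. The cell media mean includes replicates 1 and 2, which differed from the other 10 libraries. Bach2, the relative of Bach1, was below the filter at 0.832 in HBSS and at 0.590 at 100 µM.

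Lists around Abcc1 and Ugdh were short. Of 7 other Abcc transporters 4 passed the filter, 0 was called and 1 was higher at 100 µM than in HBSS, with a median of −0.15 (−0.25 to −0.030 over the 25 alternatives). Lower means included Abcc5 (5.28 ± 0.66 and 4.08 ± 0.92 FPKM) and Abcc10 (1.42 ± 0.17 and 1.09 ± 0.22). Abcc3 stood at 18.4 in HBSS and 18.9 at both doses, near the level of Abcc1. Of 11 genes of UDP-sugar and glucuronate metabolism 8 passed the filter, 0 was called and 5 were higher at 100 µM, with a median of 0.026 (0.005 to 0.057 over the alternatives). Galt, of galactose metabolism, was at 2.73 ± 0.27 and 3.31 ± 0.22, and the glucuronosyltransferase gene Ugt1a6a, which shares exons with its neighbours, at 1.18 ± 0.13 and 0.855 ± 0.175. The hyaluronan synthase genes Has1, Has2 and Has3, which use the product of Ugdh, stayed below 0.4 FPKM in every library.

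Genes whose levels ran most like those of 4 of the members were found by Pearson's r of log2(FPKM + 1) over the 9 HBSS and HOCl libraries, as a description only. Those nearest to Osgin1 were Mmp19 (r = 0.951), Kiz (0.948) and Gm9247 (0.931), and 0.557% of genes had an r above 0.8 with it. Those nearest to Nfe2l2 were Pdgfb (0.954), Aurkb (0.950) and Zfp282 (0.938), with 1.04% above 0.8. Bach1 ran with Erap1 (0.980), B230354K17Rik (0.980) and Slc41a1 (0.978), and Abcc1 with Piezo1 (0.982), Parg (0.975) and Ccdc88b (0.973). For these 2 genes 13.8% and 11.2% of all genes had an r above 0.8, so many genes shared their pattern over these libraries.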

How the data were processed

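The authors deposited FPKM values for 28977 gene IDs in 12 libraries, 1 column per library. HISAT2, featureCounts and the GRCm39 build are named per the submitters' processing notes, while versions, settings and strand are not given in the sources used here. Libraries are not tied to the 2 instruments that the labels name. Symbols and exon lengths came from GENCODE M21, of another build, for 28302 of the IDs, so genes carry no GRCm39 coordinates here. Reads were recovered from the deposited FPKM and exon length: below 1 FPKM, 98.1% to 98.4% of values in a library were whole numbers of reads within 0.01, and all values of the 9 genes were.

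Genes with at least 1 FPKM in at least 3 libraries (12026) were tested with limma 3.58.1 in R 4.3.3 on log2(FPKM + 1), which understates the change of low genes, with 1 mean per group, all 12 libraries, a mean-variance trend and Benjamini-Hochberg adjustment, two-sided, called at an adjusted p under 0.05. Named genes are the 9 members, up to 2 genes with the smallest p per list and comparison, and the 3 most like each of 4 members. Slc7a11, Maff, Cul3, Bach2, Abcc3 and the Has genes were named after their values were seen. The members and lists were chosen with earlier results of these data known. Alternatives were other pseudocounts, filters and scalings, a replicate block, 10 libraries, limma-voom on reads, leaving out each library and, added after seeing the data, removal of the exon length trend (loess, span 0.5) and 2 fits that hold Nqo1. The model was also run on simulated data whose means and spread came from these libraries and their fit, so that run followed the fits, and its outcome is not reported here. Tables and plots used Python 3.11.15.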

Additional observations from a re-analysis of the deposited data

How the results depend on the processing

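Of the 8 tested members, 6 kept the direction of their difference at 100 µM against HBSS in all 25 alternatives, and Abcc1 and Ugdh did not. Some of these alternatives only change the filter, add a replicate block or leave out libraries of other groups. Such fits cannot move the difference between 100 µM and HBSS, so their agreement was fixed in advance. At 20 µM Mafg, Mafk and Ugdh turned in at least 1 alternative, between the doses Osgin1, Abcc1 and Ugdh, and in HBSS against cell media Nfe2l2, Bach1 and Mafk. The number of members called moved from 0 in few alternatives. On 10 libraries with a replicate block it was 4 at 100 µM against HBSS (Osgin1, Bach1, Mafg and Mafk), where 24.8% of all genes were called, and 3 between the doses (Bach1, Mafg and Mafk), where 17.4% were. With 1 library left out it was 0 to 4 in HBSS against cell media, 4 without cell media replicate 3 (Abcc1, Ugdh, Bach1 and Mafg), where 65.3% of all genes were called. The same fits called list genes. On 10 libraries with a replicate block these were 19 of 26 targets, 5 of 8 BACH1-repressed genes, 6 of 16 control genes and 1 of 4 Abcc genes at 100 µM against HBSS, and 13, 4, 7 and 1 between the doses. Without cell media replicate 3 these were 15, 6, 10 and 4, and 6 of 8 UDP-sugar genes, in HBSS against cell media. The samples were not treated as paired, since the labels do not say that a number marks a shared batch and not every same-numbered pair correlated above 0.1. Among HBSS and HOCl groups, deviations of same-numbered libraries correlated at −0.062 to 0.41, and 5 of 9 correlated best with their own number, replicate 1 in each pair of groups and all 3 numbers between the doses. The values to be met without pairing were not computed, so these values do not settle pairing. With a replicate block on all 12 libraries limma called 193 genes in HBSS against cell media, 1 of the 16 control genes among them, and 0 of the members.

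Counts over all genes moved as follows. At 20 µM against HBSS limma called 0, and 6 with no filter and 9 with no filter and a pseudocount of 0.1. At 100 µM against HBSS it called 0, and 1 with no filter, 1 with no filter and a pseudocount of 0.1, 29 on the 10 libraries, 2979 on these with a replicate block, and 0 to 5 with 1 library left out. Between the doses it called 0, and 11 with no filter, with either pseudocount, 2088 on the 10 libraries with a replicate block, and 0 to 1 with 1 library left out. In HBSS against cell media it called 2, and 1 with a pseudocount of 0.5, 5 with no filter, 7 with no filter and a pseudocount of 0.1, 1 at a mean of at least 5 FPKM, 4 with quantile normalization, 0 on the 10 libraries with or without the block, 18 with the exon length trend removed, 4 with limma-voom under either filter, and 0 to 7852 with 1 library left out, the highest without cell media replicate 3. The cause was not tested. Depth limits Nqo1, which had 3 to 29 reads in a library.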
